A study of Danio rerio with 18 samples.

Results

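A set of 10 genes of the circadian clock were followed through 18 zebrafish RNA-seq libraries: 4 period genes, 3 genes of the Rev-erb nuclear receptors, ciarta, dbpa and tefa. They were chosen by symbol, as rows of the 4 count tables whose symbol, with case ignored and a final a or b allowed to be missing, named per1a, per1b, per2, per3, nr1d1, nr1d2a, nr1d2b, ciarta, dbpa or tefa, which gave 10 genes of 32520. The libraries came from dissected intestine at 5 days and dissected kidney at 7 days after fertilization, in 6 groups of 3. CV fish were wild type of the AB strain raised conventionally. GF fish were wild type AB embryos of the same spawn, washed in polyvinylpyrrolidone and hypochlorite, held in a medium with antibiotics and then raised germ-free in sterile medium. The third group was chd8-/-, a mutant of a gene for a chromatin remodeller, also given as AB. The mutant embryos were spawned in circulating system water and the CV and GF embryos in autoclaved system water, and the chd8-/- samples were listed in a separate, later block, so genotype, water and block cannot be told apart. The labels put mating at the start of the light cycle and do not state the time of day at which tissue was taken. The stated numbers of embryos were 30 (CV and GF intestine), 50 (CV and GF kidney), 40 (chd8-/- intestine) and about 70 (chd8-/- kidney), without saying whether these were per library. Nothing says that replicates came from separate clutches, so a p-value here sets a group difference only against the spread among these samples. That spread can be technical.

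The clock of vertebrate cells is a loop in which CLOCK and BMAL proteins switch on the genes of their own repressors. Period proteins act with cryptochromes to shut CLOCK and BMAL off, Rev-erb receptors (the NR1D family) repress the BMAL genes, and CIART represses CLOCK and BMAL directly. Over a day the repressor genes and the BMAL genes therefore peak at different times, and in zebrafish the organs outside the brain also sense light, which induces per2. The dbpa and tefa genes encode PAR bZIP factors, which activate clock output genes and are themselves driven by CLOCK and BMAL, so for these 2 genes the name repressor does not hold.

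Symbols are printed as the gene name table gives them. PER1 named 2 genes, ENSDARG00000012499 and ENSDARG00000056885, and the files do not tell which of them is per1a and which per1b, so they are written PER1-12499 and PER1-56885. The other members were PER2 (ENSDARG00000034503), PER3 (ENSDARG00000010519), NR1D1 (ENSDARG00000033160), nr1d2a (ENSDARG00000003820), NR1D2 (ENSDARG00000009594, counted here as nr1d2b), ciarta (ENSDARG00000058094), dbpa (ENSDARG00000063014) and tefa (ENSDARG00000039117). Reads that near-identical gene copies share could be split between them, so values of the paired genes are uncertain to that extent. All 10 members passed the low-count filter in every comparison, and their counts ran from 246 (PER2 in kidney CV replicate 1) to 13835 (PER3 in chd8-/- intestine replicate 2). Levels are in CPM, which sets counts against library size, here with TMM factors over the 18 libraries. They compare libraries and not genes, because gene lengths were not used.

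Total counts ran from 26864797 to 36624972 per intestine library and from 27291597 to 31268453 per kidney library. CHD8, the targeted gene, ran from 31.8 to 41.3 CPM in chd8-/- intestine, below the 51.4 to 62.6 CPM of wild type intestine. In the kidney the chd8-/- libraries held 30.2 to 38.9 CPM of it and the CV libraries 45.8 to 51.7 CPM. The library labelled kidney GF replicate 2, at 33.4 CPM, lay within the chd8-/- range, while the other GF kidney libraries were at 53.8 and 54.0 CPM. Kidney CV replicate 1 stood apart, with 36.4% of 22826 genes outside the range of the other 8 kidney libraries, against 11.9% to 28.0% for each of those. Enterocyte markers summed to 7492 to 12102 CPM in intestine and 229 to 769 CPM in kidney. The kidney tubule and podocyte markers summed to 666 to 916 CPM in kidney and 856 to 1201 CPM in intestine. Gene by gene 9 of the 15 were called higher and 3 lower in CV kidney than in CV intestine (median log2 difference 1.94). Of all 22826 genes, 4195 were called higher and 4866 lower. Muscle markers reached 39754 CPM in kidney, so the kidney libraries held other tissue too. In such bulk samples, fewer cells of a type and less RNA per cell cannot be told apart.

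**Figure D1:**
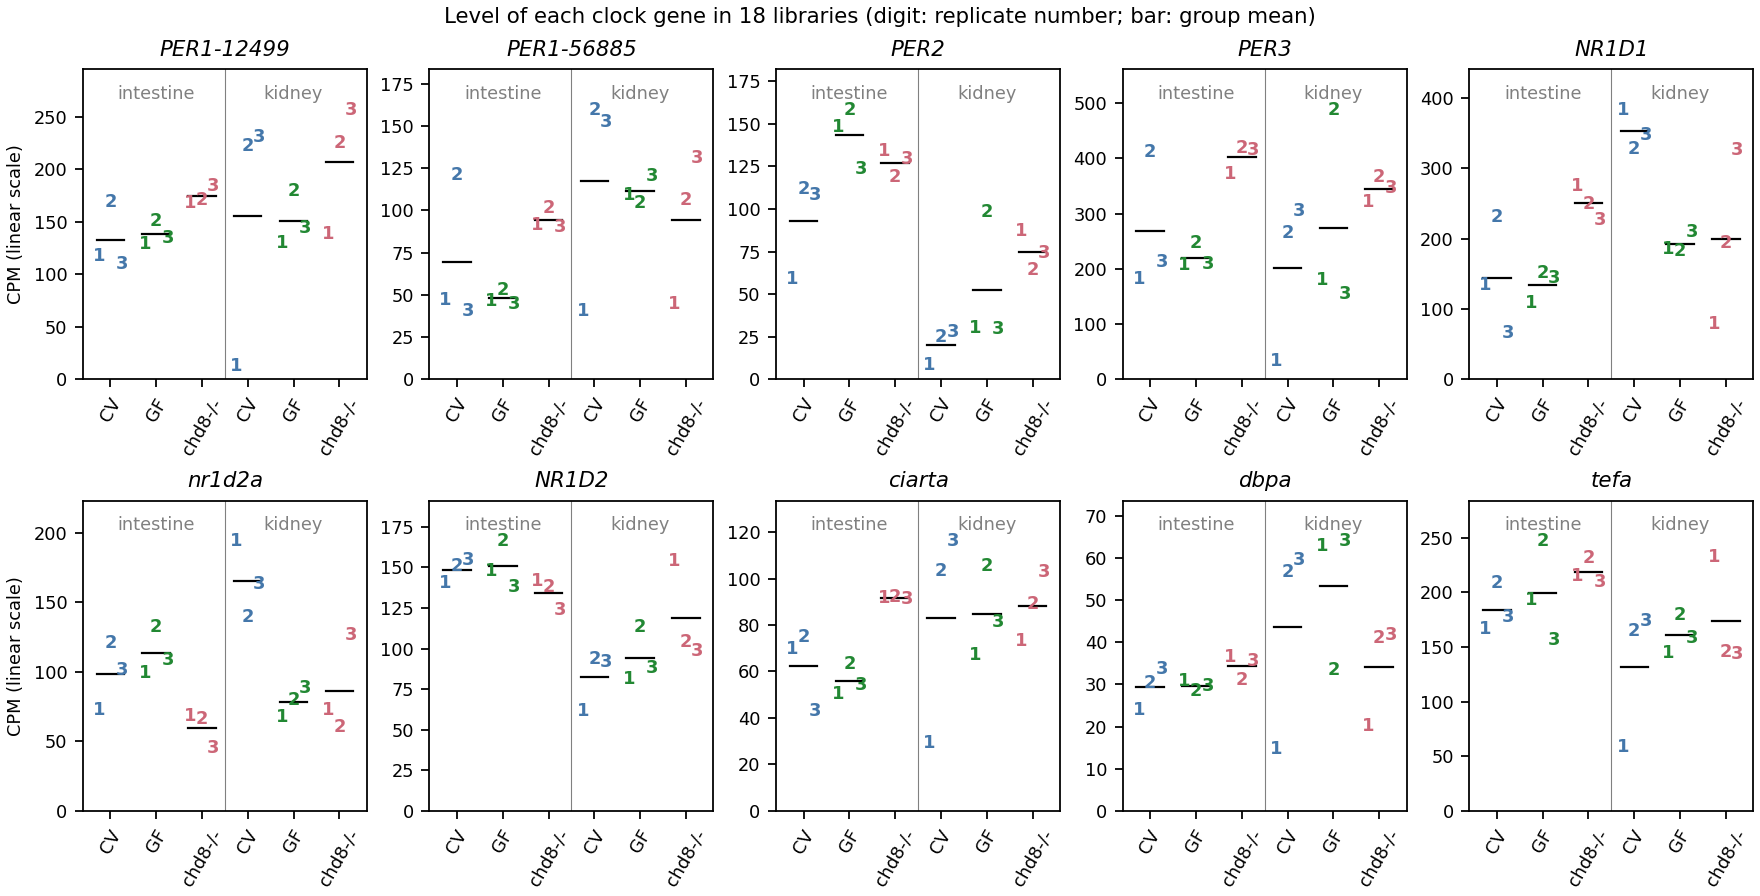
Level of each of the 10 clock genes (vertical axis, CPM on a linear scale starting at 0) in the 6 groups, with each library drawn as its replicate number and the group mean as a bar. Kidney CV replicate 1 is the lowest kidney library for 8 genes and the highest for NR1D1 and nr1d2a; intestine CV replicate 2 is separated from the other CV intestine libraries for PER1-56885 and PER3.

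In the kidney, 1 conventionally raised library held clock transcripts at levels unlike those of its replicates. Kidney CV replicate 1 was the lowest of the 9 kidney libraries for 8 of the 10 members and the highest for the other two, NR1D1 and nr1d2a. Of all 22826 genes, 18.3% were lowest and 18.1% highest in this library, so being outside the range was common there. PER1-12499, a period gene, measured 13.0, 222 and 230.1 CPM in CV replicates 1, 2 and 3, 129, 179 and 144 CPM in GF, and 139, 225 and 256 CPM in chd8-/-. Replicate 1 of CV lay far below all of these, and the median of the other 8 libraries was 15.5 times its level. PER3, another period gene, measured 34.2, 265 and 306 CPM in CV, 180.2, 488 and 155 CPM in GF, and 321, 366 and 346 CPM in chd8-/-. For PER3 the median of the other 8 libraries was 9.17 times the level of CV replicate 1, and GF replicate 2 was the highest library.

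PER2, the period gene that light induces in zebrafish, measured 8.31, 24.8 and 27.6 CPM in CV, 30.3, 98.0 and 29.3 CPM in GF, and 86.7, 64.4 and 73.9 CPM in chd8-/-. All 3 CV libraries were below all others for PER2, with replicate 1 the lowest, and GF replicate 2 again stood far above its own group. PER1-56885 measured 40.7, 159.5 and 152 CPM in CV, 109, 104 and 120.5 CPM in GF, and 44.9, 106 and 131 CPM in chd8-/-. Here both CV replicate 1 and chd8-/- replicate 1 were low. The repressor gene ciarta measured 29.3 CPM in CV replicate 1 and 67.0 to 116 CPM in the other 8 libraries, dbpa 14.7 CPM against 20.0 to 64.0 CPM, and tefa 58.1 CPM against 144 to 232 CPM. NR1D2 measured 61.7 CPM against 81.4 to 154 CPM.

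The Rev-erb genes NR1D1 and nr1d2a lay on the other side in that library. NR1D1 measured 383, 327 and 347 CPM in CV, 186, 182 and 209.8 CPM in GF, and 79.2, 194 and 327 CPM in chd8-/-. nr1d2a measured 194, 139.7 and 163 CPM in CV, 67.6, 79.4 and 88.3 CPM in GF, and 72.2, 60.0 and 127 CPM in chd8-/-. For these 2 genes the 3 CV libraries stayed together and above the GF libraries, unlike for the period genes.

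Other clock genes also lay outside the range of the other kidney libraries in CV replicate 1. Of 50 genes of the other clock lists (activators, cryptochromes, further repressors and output factors, kinases and ligases, light-induced genes), 15 were lowest and 11 highest there. That put 52.0% of them outside the range, against 36.4% of all genes (18.3% lowest and 18.1% highest). The cryptochrome genes CRY1-45768 (15.1 CPM, against 66.5 to 132 CPM in the other 8 libraries), CRY1-11583 (2.30 against 12.5 to 31.5 CPM) and CRY2 (15.0 against 48.9 to 125 CPM) were low. The other cryptochromes of the list, cry3a (114 CPM), cry3b (14.7 CPM) and cry4 (8.14 CPM), were each the highest but for chd8-/- replicate 1. The E-box repressor gene BHLHE40 was also low, at 86.9 CPM in replicate 1 and 256 and 263 CPM in CV replicates 2 and 3. Among the 11 highest were 2 more genes of the NR1D family, nr1d4b (69.6 against 1.2 to 33.7 CPM) and nr1d4a (3.28 against 0.109 to 1.97 CPM). NFIL3 was another, at 54.1 against 9.79 to 34.3 CPM. Markers of other tissues differed too: the skin list summed to 1623 CPM, against 6176 to 11299 CPM in the other 8 libraries, with krt4 at 715 CPM. The enterocyte, tubule and liver lists were also below the other 8, and the blood, brain, muscle and pancreas lists were within their range. Their part in the clock values was not tested.

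**Figure D2:**
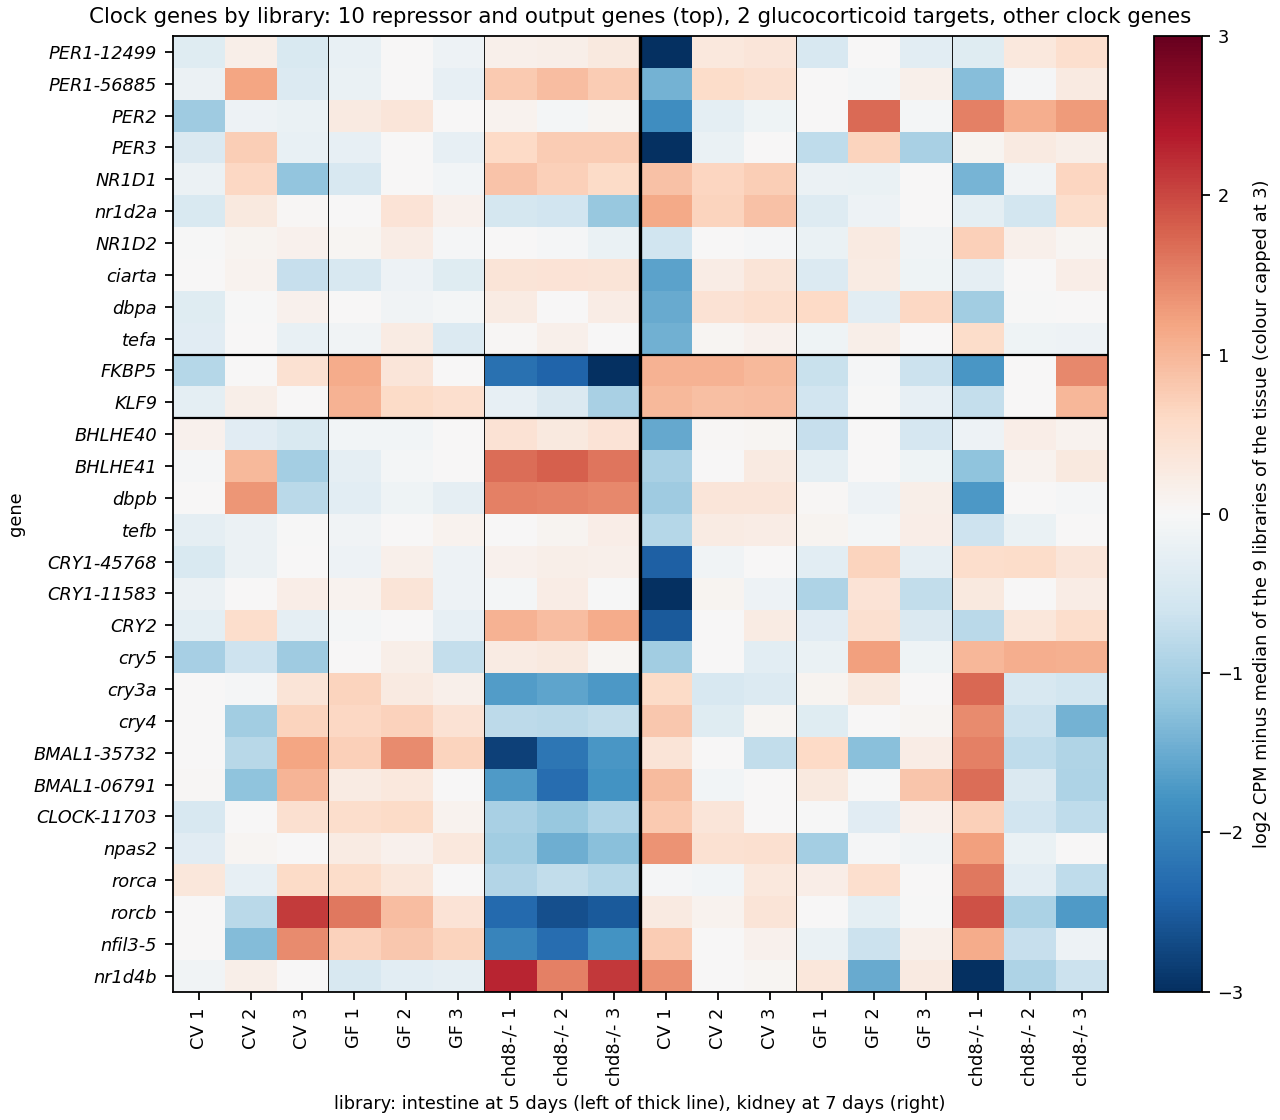
Each gene (rows) in each of the 18 libraries (columns), coloured by its log2 CPM minus the median of the 9 libraries of the tissue, with red above and blue below. Kidney CV replicate 1 is blue in the period, CRY1 and CRY2 rows and red for NR1D1 and nr1d2a; kidney chd8-/- replicate 1 and the chd8-/- intestine libraries differ from their tissue in opposite directions in the BMAL1 rows.

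Whether rearing without microbes changed these genes in the kidney was asked of 3 GF against 3 CV libraries. edgeR called 0 of the 10 members and 0% of all 21120 genes tested at an adjusted p under 0.05, while 3 members had an unadjusted p under 0.05 (8.79% of all genes). DESeq2 called 2 members, NR1D1 (adjusted p = 0.00142) and nr1d2a (0.00101), and 0.657% of all genes. Mean levels of NR1D1 were 192 ± 15.2 CPM in GF and 352 ± 28.5 CPM in CV (SD, n = 3 each), a log2 difference of −0.88 (SE 0.16, edgeR adjusted p = 0.411). nr1d2a stood at 78.4 ± 10.4 and 166 ± 27.2 CPM, a log2 difference of −1.09 (SE 0.19, edgeR adjusted p = 0.411). The GF and CV groups did not overlap for these 2 genes and for PER2, 3 of 10 members against 14.9% of all genes. For PER2 the log2 difference was 1.36 (SE 0.57, adjusted p = 0.565) and fell to 0.57 without GF replicate 2, the library whose CHD8 level lay within the chd8-/- kidney range.

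KLF9 and FKBP5, 2 of 9 listed targets of the glucocorticoid receptor and named after their values were seen, were also lower in GF kidney. KLF9 stood at 174 to 183 CPM in CV, 62.9 to 92.0 CPM in GF, and 56.9, 93.5 and 188 CPM in chd8-/- replicates 1 to 3. FKBP5 stood at 149.7 to 156 CPM in CV, 47.8 to 74.2 CPM in GF, and 22.5, 75.9 and 205 CPM in chd8-/-. Both were lowest in chd8-/- replicate 1 and highest in chd8-/- replicate 3, as was NR1D1 among the chd8-/- libraries, whereas nr1d2a was lowest in replicate 2. Of the 9 listed targets edgeR called 0 in either kidney comparison, where it called 0 of all genes too, so this says nothing about the targets. In GF 8 were negative and 1 positive (median log2 difference −0.40), 4 had an unadjusted p under 0.05 (8.79% of all genes) and DESeq2 called 2 (0.657% of all genes). In chd8-/- 5 were negative, 3 positive and 1 at 0 after rounding (median −0.02), with 0 at an unadjusted p under 0.05 (9% of all genes) and 0 called by DESeq2 (0.824% of all genes). Their part in the Rev-erb values was not tested.

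Without kidney CV replicate 1 and GF replicate 2, a pair left out after the data were seen and partly for the clock values themselves, edgeR called 5 of 10 members lower in GF, beside 4.43% of all genes (1.95% lower). These were PER1-12499 (log2 difference −0.70, SE 0.12, adjusted p = 0.00544), PER3 (−0.75, SE 0.13, 0.00746), NR1D1 (−0.75, SE 0.12, 0.00463), nr1d2a (−0.94, SE 0.14, 0.00366) and ciarta (−0.55, SE 0.13, 0.0348). With all 6 libraries PER3 and ciarta had differences of the opposite sign (0.43 and 0.02). Since 2 libraries per group remained and were chosen with their values known, these calls describe the 4 libraries. Leaving out CV replicate 1 alone gave differences of −0.81 for NR1D1, −0.95 for nr1d2a and −0.59 for PER1-12499, with 0 members called.

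In the kidney of chd8-/- fish, edgeR called 0 of 10 members and 0% of 21060 genes, and 2 members had an unadjusted p under 0.05 (9% of all genes). PER2 stood at 75.0 ± 11.2 CPM in chd8-/- and 20.2 ± 10.4 CPM in CV (SD, n = 3 each), a log2 difference of 1.86 (SE 0.40, edgeR adjusted p = 0.411). DESeq2 called PER2 alone among the members (adjusted p = 0.00145), beside 0.824% of all genes. The enterocyte markers summed to 461 to 769 CPM in these chd8-/- libraries and 229 to 415 CPM in the CV ones, with 5 of 11 at an unadjusted p under 0.05 and 3 called by DESeq2, and PER2 was higher in intestine than in kidney of CV fish; their part in the PER2 value was not tested. The groups did not overlap for 5 of 10 members, against 15.4% of all genes. PER2, PER3 (log2 difference 0.75, adjusted p = 0.778) and NR1D2 (0.49, 0.600) were above CV in every chd8-/- library, and NR1D1 (−0.84, 0.626) and nr1d2a (−0.97, 0.457) were below it. For NR1D1 the groups nearly touched, at 326.72 CPM in chd8-/- replicate 3 and 326.87 CPM in CV replicate 2. Without CV replicate 1 and chd8-/- replicate 1, again left out after the data were seen, PER2 was called higher (1.39, SE 0.14, adjusted p = 8.06e-05) and dbpa lower (−0.50, SE 0.13, 0.0323), 2 of 10 members beside 10.3% of all genes. For PER2 the libraries left out were the lowest of CV (8.31 CPM) and the highest of chd8-/- (86.7 CPM). Since 2 libraries per group remained and were chosen with their values known, these calls describe only those libraries.

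Within chd8-/- kidney, replicates 1 and 3 both held many clock genes outside the range of the other 8 kidney libraries. In replicate 3, 9 of the 50 other clock genes were lowest and 11 highest, while of all genes 15.93% were lowest and 12.05% highest. Replicate 1 had the lowest NR1D1 level of the 9 kidney libraries (79.2 CPM) and the highest NR1D2 and tefa levels (154 and 232 CPM). The BMAL1 genes, which Rev-erb receptors repress, measured 7.40, 1.48 and 1.34 CPM (BMAL1-35732) and 7.78, 1.75 and 1.24 CPM (BMAL1-06791) in chd8-/- replicates 1, 2 and 3. In both, replicate 1 was the highest of the 9 kidney libraries. The related activator gene bmal2 went the other way and was lowest there, at 2.12 CPM against 2.36 to 4.46 CPM in the other kidney libraries. Of the 50 other clock genes, 9 were lowest and 13 highest in replicate 1, while of all genes 9.42% were lowest and 15.8% highest. Among them, rorcb, of the ROR receptors that activate the BMAL genes, stood at 20.6 CPM in replicate 1 against 2.79 and 1.63 CPM in its replicates. The part of Rev-erb and ROR genes in the BMAL1 values was not tested. The enterocyte and liver marker lists were the highest of the 9 libraries in that library (769 and 3537 CPM), and their part was not tested.

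**Figure D3:**
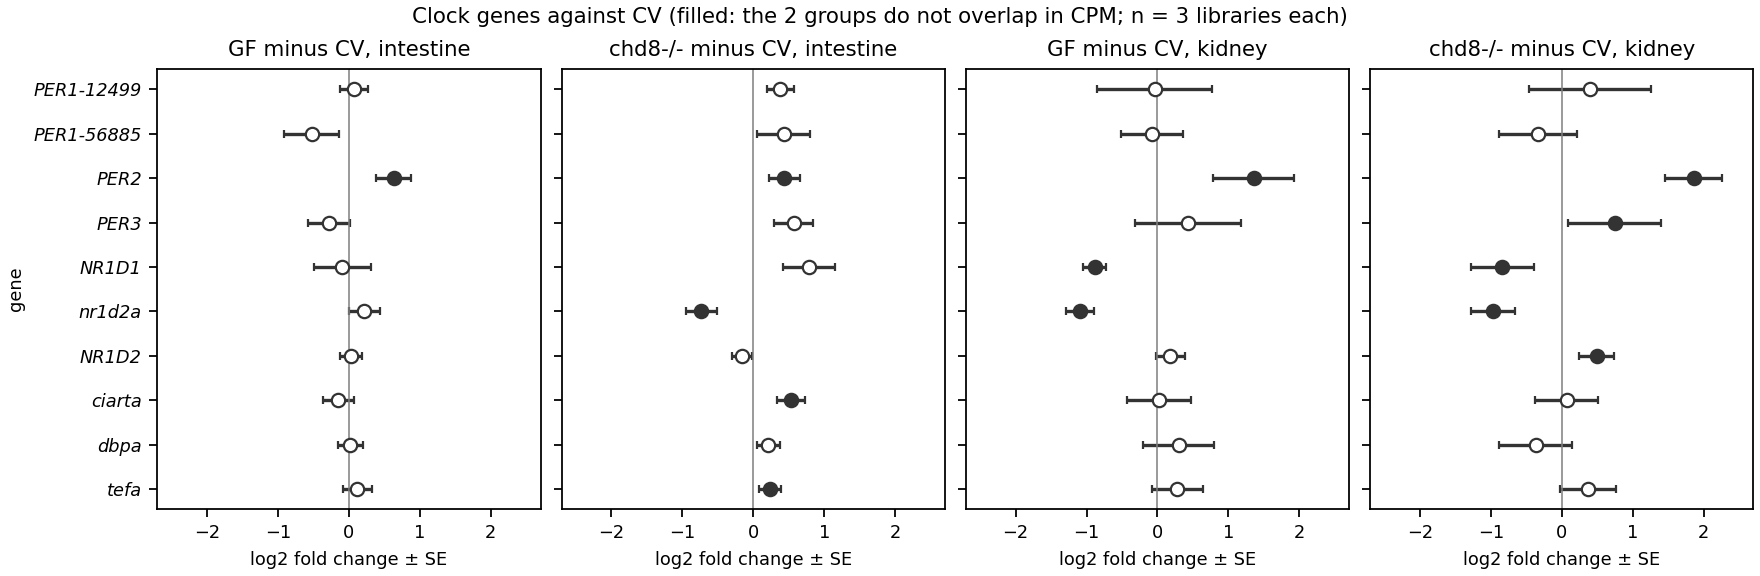
Log2 fold change of each of the 10 genes against CV (horizontal axis, with SE, 3 libraries per group) in the 4 comparisons; a filled point marks groups whose CPM values do not overlap. The error bars of PER1-12499, PER3 and ciarta are wider in both kidney comparisons than in the intestine, and 0 of the 40 values passed at an adjusted p under 0.05.

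In the intestine, GF and CV fish gave no call. edgeR called 0 of 10 members and 0% of 20954 genes, 1 member had an unadjusted p under 0.05 (5.96% of all genes), and DESeq2 called 0 members and 0.115% of all genes. That member was PER2, with 148, 158 and 124 CPM in GF and 59.1, 112 and 108 CPM in CV (log2 difference 0.63, SE 0.25, adjusted p = 0.803). All 3 GF libraries were above all CV libraries for PER2, 1 of 10 members against 11% of all genes. The other 9 members had overlapping groups and log2 differences from −0.53 (PER1-56885) to 0.22 (nr1d2a). GF replicate 3 held brain and retina markers at 557 CPM, against 23.7 to 53.2 CPM in the other intestine libraries. There 1 of 10 members (tefa) was the lowest and 0 were the highest of the intestine libraries, against 14.3% and 17.8% of all genes. Of the 50 genes of the other clock lists, 1 was lowest and 7 were highest, with 4 of the 11 activators among the highest. The part of these markers in the clock values was not tested.

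The CV intestine libraries had a larger SD of CPM than the GF ones in 8 of the 10 members, a count not made over all genes. Of all genes, 21.3%, 26.9% and 27.9% lay outside the range of the other 8 intestine libraries in CV replicates 1, 2 and 3. In GF replicates 1, 2 and 3 these shares were 17.6%, 14.5% and 32.1%. NR1D1 measured 134, 231 and 66.2 CPM in CV replicates 1, 2 and 3 and 108, 151 and 144 CPM in GF. PER1-56885 measured 47.1, 121 and 40.2 CPM in CV and 46.6, 53.1 and 44.5 CPM in GF. PER3 measured 182, 412 and 212 CPM in CV and 206, 246 and 208 CPM in GF. CV replicate 2 was thus the highest wild type library for all 3 genes, and replicate 3 was the lowest of the 9 intestine libraries for both PER1 genes, NR1D1 and ciarta. That made 4 of 10 members lowest in replicate 3, against 13.8% of all genes. PER1-12499 measured 117, 169 and 109.7 CPM in CV, with replicate 2 above the GF range of 129 to 151 CPM.

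Both BMAL1 genes and nfil3-5 were ordered the other way in these libraries. BMAL1-06791 measured 11.5, 4.88 and 23.1 CPM in CV replicates 1, 2 and 3, and BMAL1-35732 measured 6.96, 3.90 and 15.9 CPM. The nfil3-5 gene, of a family that represses at the sites the PAR bZIP factors use, measured 10.7, 4.27 and 28.5 CPM. Replicate 2 was the lowest and replicate 3 the highest CV library for each of these 3 genes, and the reverse held for PER1-12499, PER1-56885, NR1D1 and ciarta. Of the other activators, 3 were not so ordered: CLOCK-03631 measured 31.8, 39.6 and 42.2 CPM, CLOCK-11703 11.9, 16.5 and 23.0 CPM, and npas2 8.99, 11.8 and 11.4 CPM. In replicate 3, BMAL1-06791, rorca (41.5 CPM) and rorcb (76.6 CPM) were the highest of all intestine libraries and RORB (1.63 CPM) the lowest. That made 3 of 11 activators highest and 1 lowest there, against 14.1% and 13.8% of all genes. The muscle and exocrine pancreas lists were below the other 8 intestine libraries in CV replicate 2 (2912 and 3927 CPM), and their part was not tested.

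Intestine of chd8-/- fish was compared with the same 3 CV libraries as counted in the second intestine table, where they carry other replicate numbers; the numbers used here are those of the germ-free table throughout. edgeR called 0 of 10 members and 9.17% of 20758 genes, and 2 members had an unadjusted p under 0.05 (24.6% of all genes). NR1D1 measured 276, 249 and 227 CPM in chd8-/- and PER3 372, 419.6 and 416 CPM, and for both CV replicate 2 (231 and 412 CPM) lay within the chd8-/- range. PER1-12499 measured 168, 171 and 184 CPM and PER1-56885 91.2, 101 and 90.1 CPM in chd8-/-, with CV replicate 2 within the first range and above the second. ciarta measured 91.8, 92.1 and 91.1 CPM in chd8-/- and 69.7, 74.7 and 42.9 CPM in CV. For all 5 genes the chd8-/- libraries were above CV replicates 1 and 3. The log2 differences were 0.78 for NR1D1 (SE 0.37, adjusted p = 0.225), 0.57 for PER3 (SE 0.28, 0.234), 0.43 for PER1-56885 (SE 0.37, 0.533) and 0.54 for ciarta (SE 0.20, 0.118). Over the 10 members the median log2 difference was 0.41, with 8 positive, against a median of −0.01 over all genes.

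nr1d2a stood apart from the other members, with 68.1, 66.1 and 45.1 CPM in chd8-/- against 72.3, 121 and 101 CPM in CV. All 3 chd8-/- libraries were below CV, and the log2 difference was −0.73 (SE 0.22, edgeR adjusted p = 0.0587). DESeq2 called it (adjusted p = 0.0201), the 1 member that DESeq2 called, beside 9.6% of all genes, and over the 13 alternatives the adjusted p ran from 0.0201 to 0.239. Of the glucocorticoid receptor targets named for the kidney, FKBP5 ranged over 65.8 to 165 CPM in the CV libraries and over 13.1 to 25.2 CPM in the chd8-/- ones and was called lower (log2 difference −2.54, SE 0.35, adjusted p = 0.00270), and KLF9 did not pass (−0.51, SE 0.20, 0.144). Of the 9 listed targets 4 were positive and 5 negative (median log2 difference −0.07). Among them 5 had an unadjusted p under 0.05 (24.6% of all genes), edgeR called 1 (9.17%) and DESeq2 called 2 (9.6%). The list summed to 3027 to 3365 CPM in chd8-/- and 2634 to 2835 CPM in CV intestine. The part of these targets in the nr1d2a values was not tested. The groups did not overlap for 4 of 10 members (PER2, ciarta and tefa above, nr1d2a below), against 29.3% of all genes. For tefa they nearly touched, at 209.24 CPM in chd8-/- replicate 3 and 209.05 CPM in CV replicate 2.

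Whether 5 of the 10 members passed turned on 1 CV library. Without CV replicate 2, edgeR called 5 of 10 members, all higher in chd8-/-, beside 14.3% of all genes (6.28% higher). They were both PER1 genes (PER1-12499 at 0.61, SE 0.13, adjusted p = 0.0138, and PER1-56885 at 1.098, SE 0.14, 0.000849), PER3 (1.02, SE 0.15, 0.00179), NR1D1 (1.31, SE 0.27, 0.0146) and ciarta (0.69, SE 0.19, 0.0354). Without CV replicate 1 nr1d2a was called lower (−0.90, adjusted p = 0.0246), beside 8.95% of all genes. Without CV replicate 3, 0 members were called, beside 5.97% of all genes. Without any 1 chd8-/- library 0 members were called too, beside 3.44% to 3.9% of all genes.

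**Figure D4:**
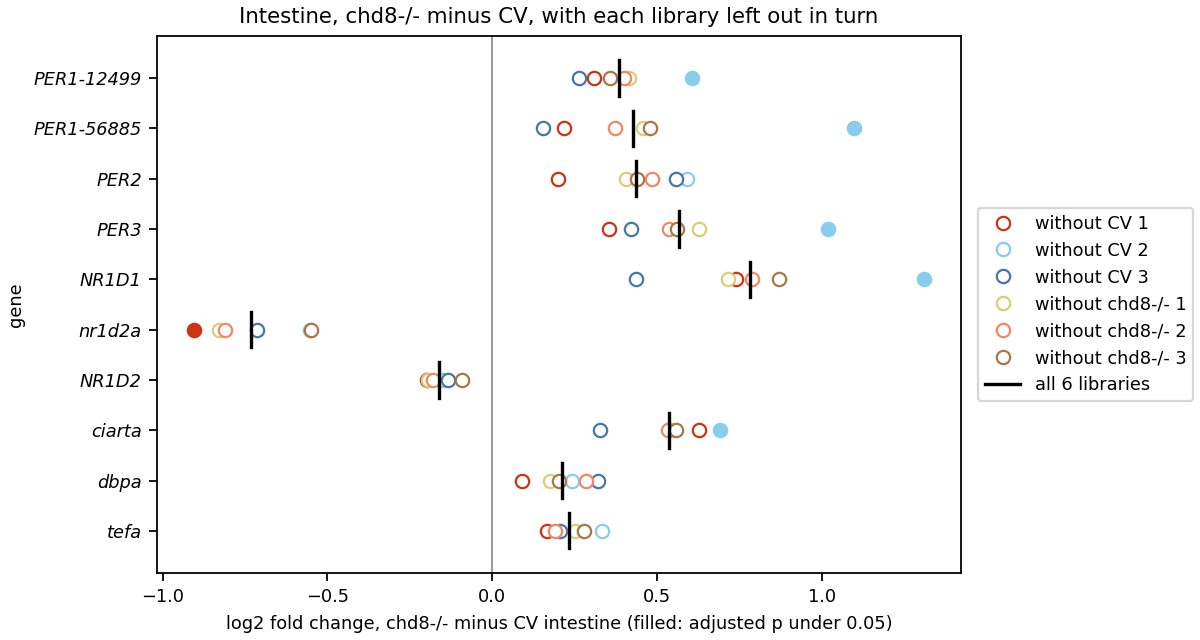
Log2 fold change between chd8-/- and CV intestine (horizontal axis) for each of the 10 genes with all 6 libraries (black bar) and with each library left out in turn (circles, filled where the adjusted p was under 0.05; CV numbers as in the germ-free table). Leaving out CV replicate 2 moves both PER1 genes, PER3, NR1D1 and ciarta upward and past the threshold.

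In the same comparison and with all 6 libraries, 5 genes of the activating arm fell, while 0 of the 10 members passed. Of 11 activator genes, 0 were called higher and 5 lower, with a median log2 difference of −1.09 against −0.01 over all genes tested, of which 3.98% were called higher and 5.19% lower. BMAL1-35732 measured 0.947, 1.49 and 2.04 CPM in chd8-/- (log2 difference −2.60, SE 0.50, adjusted p = 0.0115), and BMAL1-06791 measured 3.41, 2.27 and 3.20 CPM (−2.17, SE 0.49, 0.0261). Both were below all 3 CV libraries, CV replicate 2 included. CLOCK-11703 (−1.09, adjusted p = 0.0140), its relative npas2 (−1.19, 0.00519) and the receptor gene rorca (−1.10, 0.00697) also fell, whereas CLOCK-03631 did not pass (−0.48, 0.0810). With 1 library left out, BMAL1-35732 was lost without chd8-/- replicate 1 or 2 (adjusted p = 0.0580 and 0.0548), CLOCK-11703 without any 1 of the chd8-/- replicates (0.0591 to 0.0799) and BMAL1-06791 without any 1 of them or CV replicate 1 (0.0509 to 0.117) as well as with no low-count filter (0.0977), and CLOCK-03631 passed without CV replicate 1 (0.0377). The fits without a chd8-/- replicate called 3.44% to 3.9% of all genes, against 9.17% with all 6 libraries.

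The cryptochromes and further repressors went in both directions. Of 6 cryptochrome genes, CRY2 rose (log2 difference 0.97, adjusted p = 0.0188, but 0.0504 to 0.0751 without any 1 library other than CV replicate 2) and cry3a fell (−1.80, SE 0.17, 0.000172), from 255 to 341 CPM in CV to 78.8 to 87.5 CPM in chd8-/-. The CRY1 genes did not pass (0.34 and 0.03). Of 14 further repressors and output factors tested, nr1d4b, a fish gene of the Rev-erb family, rose from 1.27 to 1.58 CPM in CV to 4.06 to 6.94 CPM (2.00, SE 0.28, 0.00167), and nfil3-5 fell (−2.50, SE 0.62, 0.0473). The nfil3-5 call was lost without any 1 of the chd8-/- replicates or CV replicate 1 (0.0707 to 0.193), with library size only (0.0506) and with no filter (0.171). BHLHE41 (1.49, adjusted p = 0.0709), BHLHE40 (0.56, 0.0820), dbpb (1.02, 0.225), tefb (0.23, 0.340) and ciartb (0.59, 0.215) did not pass. BHLHE41 passed without CV replicate 2 (2.14, adjusted p = 0.00149) or 3 (1.13, 0.0354), with all 3 groups in 1 fit (0.0454) and with a replicate block (0.0180). BHLHE40 passed without CV replicate 1 (0.0178) and by DESeq2 (0.0279), and dbpb without CV replicate 2 (1.81, 0.000668).

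Of 9 genes that light induces in zebrafish, 3 rose and 1 fell. The photolyase gene cry5 rose (log2 difference 1.07, SE 0.17, adjusted p = 0.00336), as did the DNA damage sensor gene XPC (0.86, 0.00398) and cry-dash (0.50, 0.0473), and the repair glycosylase gene NEIL1 fell (−1.92, 0.000542). Of 9 kinase and ligase genes tested, gsk3bb, of the kinase GSK3, fell (−1.91, 0.0417) at a level of at most 2.31 CPM. The cry-dash and gsk3bb calls held without CV replicate 2 and were lost without any other 1 of the 6 libraries (0.0643 to 0.155 and 0.0529 to 0.134). In the other 3 comparisons with CV, edgeR called 0 genes of these 5 lists and 0% of all genes, so this says nothing about the lists. There cry5 stood at 21.7 to 23.2 CPM in chd8-/- kidney and 5.24 to 10.9 CPM in CV kidney (1.42, SE 0.27, edgeR adjusted p = 0.398), and DESeq2 called it (0.00285).

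Kidney and intestine differed in age as well as tissue, so a difference between them is one of both. In 1 fit of all 18 libraries, edgeR called 4 of 10 members between CV kidney and CV intestine, beside 39.7% of all 22826 genes. PER2 (log2 difference −2.20, SE 0.45, adjusted p = 0.00100) and NR1D2 (−0.85, SE 0.20, 0.00246) were lower in kidney, and NR1D1 (1.30, SE 0.41, 0.0176) and nr1d2a (0.76, SE 0.26, 0.0273) were higher. Without kidney CV replicate 1, 7 members were called (37% of all genes). Both PER1 genes, ciarta and dbpa then passed as higher in kidney (0.78 to 1.17), and nr1d2a no longer passed. The library left out was the lowest kidney library for both PER1 genes, ciarta and dbpa and the highest for nr1d2a. These changes thus follow from the values that set it apart and are no separate result. Without intestine CV replicate 1 or 3, only PER2 and NR1D2 of the members were called, and nr1d2a was also lost without kidney CV replicate 3 (adjusted p = 0.0539) and with library size only (0.0768).

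Between GF kidney and GF intestine 2 members were called, beside 35% of all genes, PER2 (−1.45, SE 0.44, adjusted p = 0.0174) and NR1D2 (−0.68, SE 0.20, 0.0130), both lower in kidney. Neither was called without intestine GF replicate 2, kidney GF replicate 1 or kidney GF replicate 3. In chd8-/- fish 0 members were called, beside 33.3% of all genes. An unadjusted p under 0.05 was found for 0 members (42.2% of all genes), and DESeq2 called 0 members (29.1% of all genes), and PER2 had a log2 difference of −0.75 (SE 0.43, adjusted p = 0.203). In the test of whether the GF response itself differed between tissues, 0 members were called, beside 0.00438% of all genes. There 1 member had an unadjusted p under 0.05 (6.41% of all genes), DESeq2 called 0 members (0.0825% of all genes), and the value farthest from 0 among the members was that of nr1d2a (−1.29, SE 0.37, adjusted p = 0.719). For the chd8-/- response 0 members were called, beside 0.127% of all genes. Here 3 members had an unadjusted p under 0.05 (9.98% of all genes) and DESeq2 called 0 members (0.952% of all genes), with NR1D1 at −1.62 (SE 0.57, 0.333) and PER2 at 1.44 (SE 0.62, 0.452).

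Ordered by mean level over the 6 groups, most neighbouring groups overlapped. This was not counted over all genes, so it is not read as particular to the members. For PER1-12499, NR1D2, ciarta, dbpa and tefa, all 5 pairs of neighbouring groups overlapped in CPM. PER2 ran from 143 ± 17.7 CPM in GF intestine through chd8-/- intestine (127 ± 7.75), CV intestine (92.9 ± 29.4), chd8-/- kidney (75.0 ± 11.2) and GF kidney (52.5 ± 39.4) to CV kidney (20.2 ± 10.4 CPM, SD, n = 3 each). The 2 intestine groups chd8-/- and CV were apart in that order, as were GF and CV kidney. For NR1D1 and nr1d2a, CV kidney was the highest group and did not overlap the next.

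The members also differed in how much they varied within a tissue. The SD of log2 CPM around the tissue mean over the 18 libraries was 0.93 for PER1-12499, a value that 87.1% of genes fell below, 0.86 for PER3 and 0.83 for PER2, and at the other end 0.26 for NR1D2 (22.1% of genes below). Kidney CV replicate 1 weighs in these SDs. There PER1-12499 measured 13.0 CPM, against 129 to 256 CPM in the other 8 kidney libraries and 109.7 to 184 CPM over the intestine libraries. The pattern most like that of PER1-12499, by the root mean square difference of tissue-centred log2 CPM over 18 libraries, was that of CRY1-11583 (0.37), followed by abcb5 (0.40), krt4 (0.42), CRY2 (0.42) and CRY1-45768 (0.42). The nearest patterns to PER3 were those of CRY1-45768 (0.34), CRY2 (0.34), cyp2ad2 (0.36), anxa2b (0.37) and CRY1-11583 (0.38). For PER2 they were CRY1-45768 (0.36), si:dkeyp-47f9.4 (0.38), cry5 (0.38), OPRL1 (0.42) and si:dkey-18a10.3 (0.43). These patterns come from the same libraries, so they share the differences between libraries in depth and tissue makeup. Kidney CV replicate 1 weighs in each distance, and krt4 is a skin keratin that was low in that library.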

How the data were processed

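The authors deposited raw counts, whole reads per gene, in 4 tables that each pair CV with another group of the same tissue. The submitters' processing notes name STAR 2.7.9a, Subread 2.0.1 with featureCounts, Trim Galore 0.6.7, FastQC 0.11.9 and build GRCz11; whether counting used strand is not given in the sources used here, nor is the annotation release. The tables hold 32520 Ensembl genes, of which 29201 matched a symbol.

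The edgeR package (4.0.16, R 4.3.3) tested these counts by its robust quasi-likelihood method with TMM factors and the filterByExpr filter, using 6 libraries for each comparison with CV and all 18 for tissue contrasts and their differences. P-values were adjusted over all genes tested (Benjamini-Hochberg) and called under 0.05; every adjusted p is from edgeR unless DESeq2 (1.42.0) is named, and SE is the fold change over the square root of F. Display CPM used TMM over the 18 libraries, and log2 CPM a prior count of 2. The steps were tested on simulated data.

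Both kidney tables hold identical CV columns. Those of the intestine tables were the same libraries with slightly different counts and other numbers: replicates 1, 2 and 3 of the germ-free table were 3, 1 and 2 of the chd8-/- table (72.8% to 80.9% of genes equal).

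The members and gene lists were chosen with earlier results of these data known. Named were all 10 members, fixed sentinels and the clock-list genes called in a comparison, to 8 by adjusted p. The remaining called ones of the chd8-/- intestine were added after their values were seen. FKBP5, KLF9, rorcb, krt4, nr1d4a, NFIL3 and RORB were also named after their values were seen. Alternatives were DESeq2, library size only, RLE factors, no filter, at least 50 counts in 3 libraries, 3 groups in 1 fit, a replicate block, and leaving out libraries.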

Additional observations from a re-analysis of the deposited data

How the results depend on the processing

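Alternatives were run on 70 log2 differences: each member against CV, named tissue contrasts and clock-list genes of chd8-/- intestine. Of their values, 842 kept direction and side of the threshold, 41 reversed, 29 no longer passed and 25 newly passed. These totals leave out the counts of members called. They also leave out CRY2, cry-dash and gsk3bb, whose lost calls are given above. The cause of these changes was not tested. Members called numbered 1 in chd8-/- intestine with DESeq2, library size only and no filter, beside 9.6%, 10.3% and 7.55% of all genes. They numbered 2 (DESeq2, 0.657% of all genes) and 5 (CV replicate 1 and GF replicate 2 left out, 4.43%) in GF kidney. In chd8-/- kidney they numbered 1 (DESeq2, 0.824%) and 2 (CV replicate 1 and chd8-/- replicate 1 left out, 10.3%). With all libraries in edgeR the count was 0 in each, beside 9.17%, 0% and 0% of all genes. With 1 library left out, the count ran from 0 to 5 in chd8-/- intestine, beside 3.44% to 14.3% of all genes. For kidney minus intestine it ran from 2 to 7 in CV (32.8% to 37% of all genes), from 0 to 2 in GF (27.9% to 33%) and from 0 to 1 in chd8-/- (25.6% to 31%).

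In GF kidney, library size only reversed PER1-12499 (0.051) and PER1-56885 (0.0097), and leaving out the pair reversed PER3 (−0.75), NR1D2 (−0.11), ciarta (−0.55) and tefa (−0.14). In chd8-/- kidney the pair reversed ciarta (−0.20) and tefa (−0.23), and in chd8-/- intestine library size only reversed CRY1-11583 (−0.10). Same-numbered libraries did not vary together (correlations −0.15 to −0.025 in GF intestine, −0.12 to 0.001 in GF kidney −0.186 to −0.064 in chd8-/- kidney and, with the CV columns of the germ-free table, −0.038 to 0.094 in chd8-/- intestine), and a replicate block called 0 members in these 4 comparisons, the last added after the data were seen; it reversed NR1D1 in GF intestine (0.064) and PER1-12499 (0.61) and PER1-56885 (0.13) in GF kidney.

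Log2 differences that reversed with 1 library left out ran, in GF intestine, from −0.062 to 0.30 (PER1-12499), −0.82 to 0.16 (PER1-56885), −0.50 to 0.18 (PER3), −0.45 to 0.45 (NR1D1), −0.041 to 0.078 (NR1D2), −0.37 to 0.011 (ciarta), −0.11 to 0.12 (dbpa) and −0.061 to 0.26 (tefa). In chd8-/- intestine CRY1-11583 ran from −0.062 to 0.12. In GF kidney they ran from −0.59 to 0.37 (PER1-12499), −0.49 to 0.20 (PER1-56885), −0.25 to 0.87 (PER3), −0.38 to 0.35 (ciarta), −0.11 to 0.60 (dbpa) and −0.075 to 0.53 (tefa). In chd8-/- kidney they ran from −0.15 to 0.80 (PER1-12499), −0.74 to 0.0049 (PER1-56885) and −0.33 to 0.39 (ciarta). The gsk3bb, nr1d4b and BMAL1-35732 calls rest on levels under 3 CPM in at least 1 group. BMAL1-06791 and nfil3-5 were also near that level in chd8-/- intestine, at 2.3 and 2.1 CPM in replicate 2.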
